A study of Mus musculus with 24 samples.

Results

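The genes of prostaglandin and nitric oxide synthesis were followed across 24 Affymetrix arrays of mouse cortical neurons in 8 groups. The set held 10 genes: the cyclooxygenases Ptgs1 and Ptgs2, the prostaglandin synthases Ptges, Ptges2, Ptges3 and Ptgds, the phospholipase Pla2g4a, and the nitric oxide synthases Nos1, Nos2 and Nos3. A probe set, the group of short probes read out as one value, was taken when the array's annotation gave it exactly one of these symbols. This found 15 of 45037 non-control probe sets, for 8 of the 10 genes, of 18193 genes named on the array in all. No probe set carried the symbol Ptgs1 alone, and both probe sets that listed Ptges3 also listed its pseudogene Ptges3-ps, so these genes have no value here. Of the 15 probe sets, 9 from 6 genes passed the filter on dim values, which required at least 3 arrays above the 40th percentile of their own array. The others were 1 of 2 probe sets for Ptgs2, all 3 for Ptges, the single one for Nos2 and 1 of 4 for Nos1.

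All cells came from Il1rap-/- mouse embryos, and so lacked both AcP, the chain that IL-1 receptors need in order to signal, and AcPb, the form of that chain made in the nervous system. The neurons were made to express CD25 (the IL-2 receptor alpha subunit, with no role in IL-1 binding), or AcP, or AcPb, or AcP and AcPb together. Each of these 4 arms had 3 arrays after a control stimulus and 3 after IL-1b at 10 ng/ml for 4 h, all in serum-free medium with B-27 supplement. The vector and promoter used to introduce the genes are not given in the sources used here, and whether the arrays of 1 group represent separate cultures is not stated. The p-values therefore reflect the spread of these arrays alone, which can be purely technical. The question was which accessory chain lets these neurons respond to IL-1b.

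Prostaglandin synthesis starts when cytosolic phospholipase A2, the product of Pla2g4a, releases arachidonic acid from membranes. The cyclooxygenases turn it into prostaglandin H, and terminal synthases make prostaglandin E (Ptges, Ptges2, Ptges3) or prostaglandin D (Ptgds). Ptgs2 and Ptges are the inducible pair in inflammation and fever, whereas Ptgs1 and Ptges2 are usually constitutive. Nitric oxide is made from arginine by a neuronal (Nos1), an inducible (Nos2) and an endothelial (Nos3) enzyme, and Nos2 is known for its induction by cytokines in macrophages, microglia and astrocytes.

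The sequences before the annotated starts of Ptgs2 and Pla2g4a are shown because the results turn on these genes, on Ptgs2 after IL-1b and on Pla2g4a between arms. They are also neighbours on chromosome 1, with 0 protein-coding genes between them in the GRCm38.p6 annotation. Each window runs from 250 bases before to 50 bases after a RefSeq transcript start and is printed 5′ to 3′ on the gene's strand, with motif matches in capitals. The Ptgs2 window is chr1:150099781-150100080 on the plus strand, and the Pla2g4a window is chr1:149961241-149961540 on the minus strand.
Ptgs2: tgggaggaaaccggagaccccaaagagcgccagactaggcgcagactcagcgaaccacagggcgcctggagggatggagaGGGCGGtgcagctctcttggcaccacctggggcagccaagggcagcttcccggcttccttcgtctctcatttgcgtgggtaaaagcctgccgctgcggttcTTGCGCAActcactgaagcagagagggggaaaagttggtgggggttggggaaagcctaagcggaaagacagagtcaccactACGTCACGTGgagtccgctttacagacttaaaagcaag
Pla2g4a: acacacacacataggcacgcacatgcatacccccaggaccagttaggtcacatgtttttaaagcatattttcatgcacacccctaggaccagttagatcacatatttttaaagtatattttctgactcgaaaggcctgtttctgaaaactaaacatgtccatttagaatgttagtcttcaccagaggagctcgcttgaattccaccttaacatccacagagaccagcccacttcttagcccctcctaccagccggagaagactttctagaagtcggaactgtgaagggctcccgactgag

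Both strands were searched for 5 motifs: the NF-kB motif, the C/EBP palindrome TTGCGCAA, the E-box CACGTG, the cyclic AMP response element core ACGTCA and the GC box GGGCGG. In the Ptgs2 window the GC box lay at positions -170 to -165 from the start, TTGCGCAA at -69 to -62, and ACGTCA at 13 to 18, sharing its last bases with CACGTG at 17 to 22. No NF-kB match lay in this window. Of 32851 promoter windows of the same length, 0.183% held TTGCGCAA, 7.15% the E-box, 7.51% ACGTCA, 35.7% the GC box and 8.46% the NF-kB motif. Neither the Pla2g4a window shown nor that of its other annotated start held any of the 5. Of the 10 genes, 8 had a window in the RefSeq table. NF-kB matches lay in the windows of Nos1, at -90 to -81, of Ptgds, at -22 to -13, and of Ptges3, at -87 to -78. A match is a description of letters, and no binding was measured.

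Array medians lay between 55.02 and 66.41 intensity units, and 16.4% to 18.2% of the values of an array were below 0. The summed level of 11 neuron markers ran from 45717 to 55031 across arrays, and 8 astrocyte markers summed to between 15529 and 23471, so the cultures held both signals. The 8 oligodendrocyte markers with a probe set summed to between 4647 and 7810, led by Olig1 at a mean of 3501. The 9 microglial markers summed to between 375 and 1069, mostly from Csf1r at a mean of 470, with C1qb at 71.0 and Cd68 at 48.0, while Aif1 and C1qa had means below 0 in every group. The 7 endothelial markers summed to between 87.9 and 225, with Kdr at 74.2 and Flt1 at 34.1, while Pecam1 and Vwf had means below 0 in every group. The descriptions of the arrays hold a code that was the same for all CD25, AcP and AcPb arrays and differed for the AcP+AcPb arrays, so that in comparisons of AcP+AcPb with CD25 the arm and the code cannot be told apart. The code also split the AcP+AcPb arm: controls 1 and 2 carried one code, and control 3 and all 3 IL-1b arrays another, so that the AcP+AcPb response was partly confounded with it. That response had 78 called probe sets of 30468. With the code as a fixed block in the fit, the response rested on control 3 alone against the 3 IL-1b arrays. No count is given for that fit. With 3 arrays against 3, the smallest two-sided p of an exact permutation test is 0.1, and tests were made with limma across all probe sets with Benjamini-Hochberg adjustment.

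Ptgs2, the inducible cyclooxygenase, had the largest IL-1b response of the 15 probe sets, on 1 of its 2 probe sets and near the floor of detection. On probe set 1417262_at the AcP control arrays read -3.48, -3.17 and 1.38 intensity units, and the AcP arrays with IL-1b read 26.85, 33.86 and 19.35. The AcP+AcPb control arrays read -3.69, -8.3 and -1.99, and those with IL-1b read 14.2, 20.91 and 30.04. In both arms every IL-1b array lay above every control array. The AcPb arrays lay between 0.55 and 2.04 without IL-1b and between -7.39 and 1.92 with it, and these groups overlapped. In CD25 neurons the controls already read 11.43, 26.75 and 11.34, and the IL-1b arrays read 13.89, 16.34 and 49.51, so that the groups overlapped and 1 array stood well above the rest.

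The means of this Ptgs2 probe set were -1.76 ± 2.72 (SD, n = 3) in AcP controls and 26.7 ± 7.26 after IL-1b, and -4.66 ± 3.26 and 21.7 ± 7.95 in the AcP+AcPb arm. Its mean rank in a group lay between percentiles 14.7 and 37.2 of the arrays, so it did not pass the dim filter and was tested in a fit without that filter. There, on the scale log2(value + 16) with values below 0 set to 0, the IL-1b response was 1.36 ± 0.24 (SE) in AcP neurons (limma with Benjamini-Hochberg adjustment, adjusted p = 0.0178). In that fit, 0.244% of 45037 probe sets were called at an adjusted p under 0.05. The response was 1.22 ± 0.24 in AcP+AcPb neurons (adjusted p = 0.0451), beside 0.195% of probe sets called. It was 0.33 ± 0.24 in CD25 neurons (95% interval -0.17 to 0.83, adjusted p = 0.938) and -0.04 ± 0.24 in AcPb neurons (-0.54 to 0.46, adjusted p = 1). Most control values of the AcP and AcP+AcPb arms lay below 0 and were set to 0, so the size of these responses rests on the added 16 and no fold is given. Over the alternatives run the AcP response ranged from 0.49 to 2.77 and the AcP+AcPb response from 0.42 to 2.64, lowest with 64 added and highest with 4. In these bulk arrays a larger share of cells that make a transcript and more transcript per cell cannot be told apart.

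The calls of Ptgs2 were not firm. The AcP response kept its call in 8 of 16 alternatives, with an adjusted p between 0.000709 and 0.159, and lost it without AcP control 1 or 2 or AcP IL-1b array 1 or 2 (adjusted p = 0.0626, 0.0645, 0.0622 and 0.106). The AcP+AcPb response kept its call in 6 of 16 and lost it in 5 of the 6 fits without 1 of its arrays, where the adjusted p reached 0.235. The call was also lost with the array code as a fixed block, a fit in which the AcP+AcPb response rested on control 3 alone. Within the code that held both groups, the single control read -1.99 and lay below the 3 IL-1b arrays, a comparison with no replicate on the control side. The response in AcP neurons exceeded that in CD25 neurons by 1.03 ± 0.33, which did not pass the test (adjusted p = 0.452). Without CD25 IL-1b array 3, the one that read 49.51, this difference had an adjusted p of 0.0332. The AcPb response differed from the CD25 response by -0.37 ± 0.33 (adjusted p = 0.841), and the AcP+AcPb response by 0.89 ± 0.33 (adjusted p = 0.446). The AcP+AcPb response differed from the AcP response by -0.15 ± 0.33 (95% interval -0.85 to 0.56, adjusted p = 1). None of these differences between arms was called with all arrays in the fit.

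The second Ptgs2 probe set, 1417263_at, passed the dim filter and was not called. Its AcP controls read 42.73, 10.17 and 32.11, and the AcP arrays with IL-1b read 31.36, 59.41 and 46.45, which overlap. The AcP response on it was 0.53 ± 0.34 (95% interval -0.19 to 1.25, adjusted p = 0.745) and the AcP+AcPb response 0.28 ± 0.34 (adjusted p = 0.846). Its SD within a group had a median of 13.5, beside 6.10 for 1417262_at. Across the 24 arrays the values of the Ptgs2 probe sets correlated at a Pearson r of 0.410 and a Spearman rho of 0.316, a description over arrays that share their groups.

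**Figure D1:**
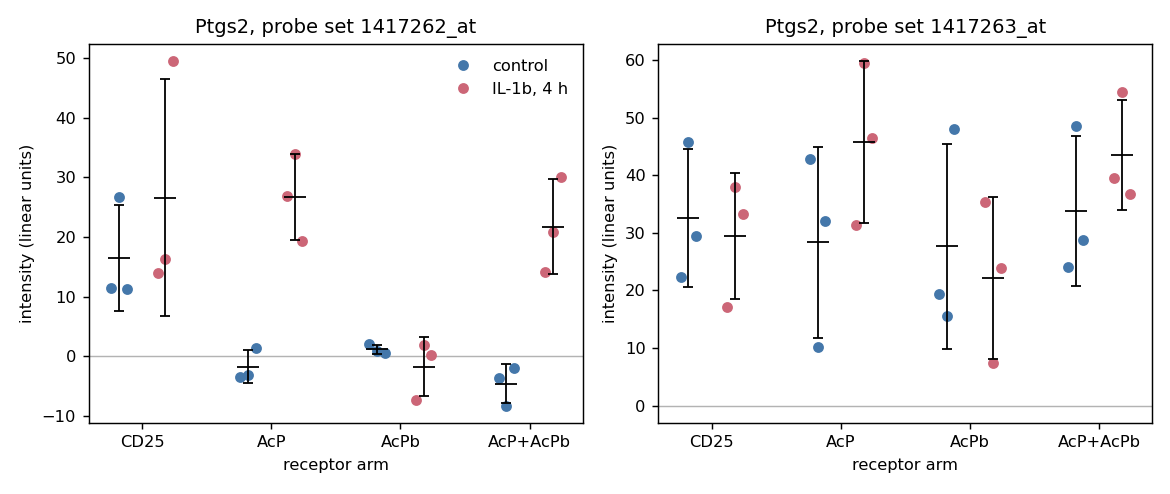
Intensity (linear units, y axis) of both Ptgs2 probe sets by receptor arm (x axis), for control arrays (blue) and arrays with IL-1b for 4 h (red). Points are single arrays, horizontal bars are means and whiskers are SDs of 3 arrays. On 1417262_at the IL-1b arrays of the AcP arm (19.35 to 33.86) and of the AcP+AcPb arm (14.2 to 30.04) lie above their controls, whereas on 1417263_at the groups overlap.

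Without IL-1b, Ptgs2 on 1417262_at was lower in each arm than in CD25 neurons. All 9 control arrays of the other arms read at most 2.04, below the lowest CD25 control at 11.34. In the fit without the dim filter the differences were -0.95 in AcP (adjusted p = 0.0199), -0.89 in AcPb (adjusted p = 0.0491) and -0.99 in AcP+AcPb neurons (adjusted p = 0.0133), each ± 0.24. The share of probe sets called there was 7.07%, 3.28% and 9.7%. These arms lay near 0, and over the alternatives the differences ranged from -2.13 to -0.32, from -1.92 to -0.30 and from -2.28 to -0.33. On the brighter Ptgs2 probe set 1417263_at the same differences were -0.18, -0.20 and 0.03, each ± 0.34, and did not pass the test (adjusted p = 0.782, 0.821 and 0.96). These 3 comparisons share the CD25 controls, and all depend on CD25 control 2, which read 26.75: without it the adjusted p was 0.107, 0.216 and 0.0728. The AcP call was also lost without AcP control 1 or 2 (adjusted p = 0.0573 and 0.0634), and the AcPb call without any 1 of its 6 arrays (adjusted p from 0.0671 to 0.216). With IL-1b, Ptgs2 in AcPb neurons stood 1.26 ± 0.24 log2 units below CD25 neurons (estimate -1.26, from -2.54 to -0.46 over the alternatives, adjusted p = 0.00974, beside 1.47% called), a call lost with only the groups compared (adjusted p = 0.283). The corresponding differences of AcP (0.08 ± 0.24) and AcP+AcPb neurons (-0.10 ± 0.24) did not pass the test.

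Ptges, the inducible prostaglandin E synthase, gave no level that could be followed. Its probe set 1439747_at was below 0 on 22 of 24 arrays, and 1449449_at and 1449450_at lay between -1.91 and 28.67 and between -2.48 and 31.69. On 1449450_at the AcP mean was 9.39 ± 11.3 in controls and 22.1 ± 7.59 with IL-1b, a response of 0.60 ± 0.37 in the fit without the filter (adjusted p = 0.764). On 1439747_at the AcP mean was -26.2 ± 7.98 in controls and -2.79 ± 9.98 with IL-1b. The AcP arrays with IL-1b (-13.71, -0.51 and 5.85) lay above the AcP controls (-19.12, -34.85 and -24.67), and in the other arms the groups overlapped. Of these AcP values all but 5.85 were below 0 and were set to 0, so the test could not weigh this shift. No IL-1b response of Ptges was called, and the 3 probe sets correlated with each other at a Pearson r of only -0.06 to 0.21 over the 24 arrays. Ptges2, the constitutive membrane-associated synthase, was well measured, between 219 and 396 on every array. Its mean was 260 ± 25.2 in AcP controls and 308 ± 26.5 with IL-1b. The arrays were 286.69, 236.85 and 255.05 against 279.23, 331.47 and 313.52, which overlap, and the response of 0.23 ± 0.15 did not pass the test (95% interval -0.08 to 0.55, adjusted p = 0.741).

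With the dim filter, none of the 9 tested probe sets was called in any of the 4 IL-1b responses. By limma, 0 of 9 had an adjusted p under 0.05 in CD25 neurons, where 0% of 30468 probe sets were called, and 0 of 9 had an unadjusted p under 0.05, beside 5.62% of all. In AcP neurons both counts were again 0 of 9, beside 0.404% of probe sets called and 8.24% at the unadjusted p. In AcPb neurons 0 of 9 were called, beside 0.00985%, and 1 had an unadjusted p under 0.05: probe set 1423860_at of Ptgds at 0.30 ± 0.12 (adjusted p = 0.424), beside 10.1% of all. In AcP+AcPb neurons both counts were 0 of 9, beside 0.256% called and 9.78% at the unadjusted p. With so few probe sets called in all, a count of 0 among 9 lies near the background. The median response of the 9 was -0.08, 0.01, -0.07 and -0.06 in CD25, AcP, AcPb and AcP+AcPb neurons, beside -0.01, 0.00, 0.00 and 0.01 over all probe sets tested.

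The differences between responses gave no called probe set of the set either. For AcP minus CD25 the count was 0 of 9, beside 0.19% of all probe sets, and 0 had an unadjusted p under 0.05, beside 8.5%. For AcPb minus CD25 and AcP+AcPb minus CD25 the counts were 0 of 9, beside 0.00328% and 0.141%, with 1 each at an unadjusted p under 0.05, beside 9.59% and 10.1%. For AcP+AcPb minus AcP the count was 0 of 9, beside 0.00328%, with 0 at an unadjusted p under 0.05, beside 5.12%. The comparisons with CD25 share its 6 arrays.

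**Figure D2:**
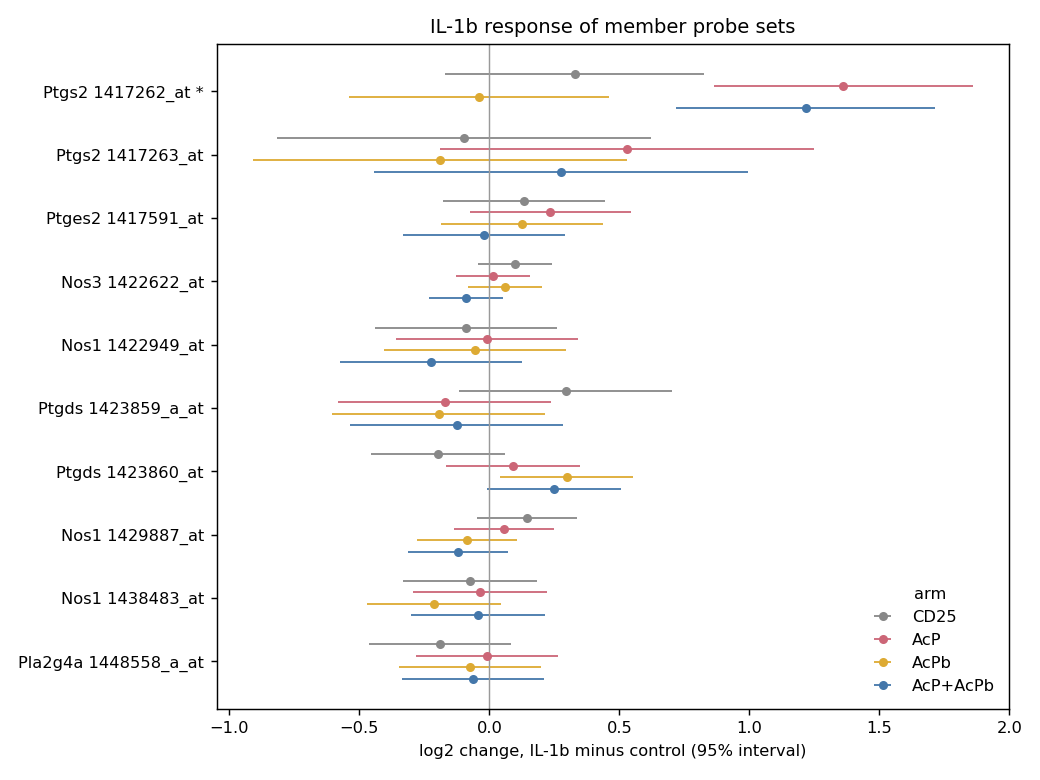
IL-1b response (log2 change, IL-1b minus control, x axis) of the 9 tested probe sets and of Ptgs2 1417262_at, which is marked with an asterisk and comes from the fit without the dim filter, in 4 receptor arms (colours). Points are limma estimates and lines 95% intervals. The intervals of Ptgs2 1417262_at in the AcP and AcP+AcPb arms lie above 0, at 1.36 and 1.22, and of the others only that of Ptgds 1423860_at in the AcPb arm, at 0.30, leaves out 0.

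Pla2g4a, the phospholipase that supplies arachidonic acid, was higher in CD25 neurons than in each other arm, with or without IL-1b. Its single probe set 1448558_a_at read 101.82, 114.75 and 97.33 in CD25 controls and 81.18, 74.6 and 117.57 in CD25 neurons with IL-1b. The AcP controls read 40.89, 48.04 and 39.77, the AcPb controls 47.85, 51.68 and 45.85, and the AcP+AcPb controls 46.48, 47.81 and 40.52. With IL-1b the AcP arrays read 53.09, 43.56 and 32.33, the AcPb arrays 44.17, 44.37 and 47.14, and the AcP+AcPb arrays 39.78, 39.03 and 48.21. All 6 CD25 arrays, from 74.6 to 117.57, lay above all 18 arrays of the other arms, from 32.33 to 53.09.

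The control means of Pla2g4a were 105 ± 9.04 in CD25, 42.9 ± 4.49 in AcP, 48.5 ± 2.96 in AcPb and 44.9 ± 3.88 in AcP+AcPb neurons. Against CD25 neurons it was lower by 1.03 ± 0.13 log2 units in AcP (estimate -1.03, adjusted p = 3.55e-05), by 0.90 ± 0.13 in AcPb (estimate -0.90, adjusted p = 0.000294) and by 0.98 ± 0.13 in AcP+AcPb neurons (estimate -0.98, adjusted p = 7.46e-05). With IL-1b, which uses other arrays, the estimates were -0.85 ± 0.13 (adjusted p = 0.000389), -0.79 ± 0.13 (adjusted p = 0.00214) and -0.86 ± 0.13 (adjusted p = 0.000415). The unstimulated calls held in all 18, 18 and 17 alternatives run. Those with IL-1b were lost in the fit with only the groups compared (adjusted p = 0.0958, 0.154 and 0.0679) and held in the other 17, 17 and 16.

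IL-1b itself left no called change in Pla2g4a. The response was -0.19 ± 0.13 in CD25 neurons (95% interval -0.46 to 0.08), -0.01 ± 0.13 in AcP (-0.28 to 0.26), -0.07 ± 0.13 in AcPb (-0.35 to 0.20) and -0.06 ± 0.13 in AcP+AcPb neurons (-0.34 to 0.21). Among AcP, AcPb and AcP+AcPb neurons the group means of Pla2g4a lay between 42.3 and 48.5, and the ranges of their arrays overlapped.

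Markers of meningeal, mural and fibroblast cells moved with the arms as well. The summed intensity of 11 such markers was 2147 to 2841 in CD25 controls and 1135 to 1585 in the controls of the other arms. It came mostly from Acta2, at a mean of 1057 over all arrays, with Col1a2 and Dcn next at 137 each. Of 9 tested, 4, 3 and 5 were called lower than in CD25 neurons in the AcP, AcPb and AcP+AcPb controls, beside 10.3%, 4.59% and 14.3% of all probe sets called in either direction. Among them were Acta2, a smooth muscle actin, and Foxc1, a transcription factor of the meninges. Foxc1 lay near the floor, with group means from -12.7 to 48.5 and values below 0 set to 0, so its call carries little weight. Slc6a13, a transporter of the meninges, was below 0 in every group. With IL-1b the sum was 1934 to 2714 in CD25 neurons, 1181 to 1429 in AcP and 1305 to 1663 in AcP+AcPb neurons. In each of the latter arms 5 of the 9 were called lower, beside 8.1% and 10.7% of all probe sets. In AcPb neurons with IL-1b the sum was 1705 to 2226, which overlapped CD25. There 0 were called lower and Pdgfrb, a receptor of mural cells, was called higher, beside 2.15% of all probe sets. The part of these cells in the Pla2g4a difference was not tested. The sums of 8 astrocyte markers overlapped between arms, and single markers went both ways. The calls in controls that follow stand beside the same 10.3%, 4.59% and 14.3% of all probe sets. In AcP controls Aldoc, S100b and Slc1a2 were called higher than in CD25 controls and Aldh1l1, Aqp4 and Gfap lower. In AcPb controls Aldh1l1 and Gfap were called lower, and in AcP+AcPb controls S100b and Slc1a2 were called higher and Aldh1l1 lower. Of 7 oligodendrocyte markers tested, Olig1 was called higher in AcP and AcPb controls and Mbp lower in AcP+AcPb controls.

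A search covered the 25623 probe sets with 1 other symbol that passed the filter. Those that followed Pla2g4a most closely over the 24 arrays were Plekhg2 (Pearson r = 0.958), Cstb (0.954), Dap (0.952), Tmem176a (0.951) and Cxcl12 (0.951). Their Spearman rho was lower, at 0.777, 0.774, 0.736, 0.752 and 0.741 in the same order. How far these r values rest on the step between CD25 and the other arms was not tested. Tmem176a had a mean of 52.7 in CD25 neurons and -130 in the other arms, a negative mean that gives no level to follow. For Ptgs2 on 1417262_at the closest were Cebpd (Pearson r = 0.915), Gbp7 (0.905), Plekhf1 (0.905), Shisa3 (0.904) and Cebpb (0.888). Their Spearman rho was 0.786, 0.816, 0.874, 0.860 and 0.827. These 2 probe sets were chosen for the search after their values were seen, the arrays share their groups, and the coefficients describe these arrays only.

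**Figure D3:**
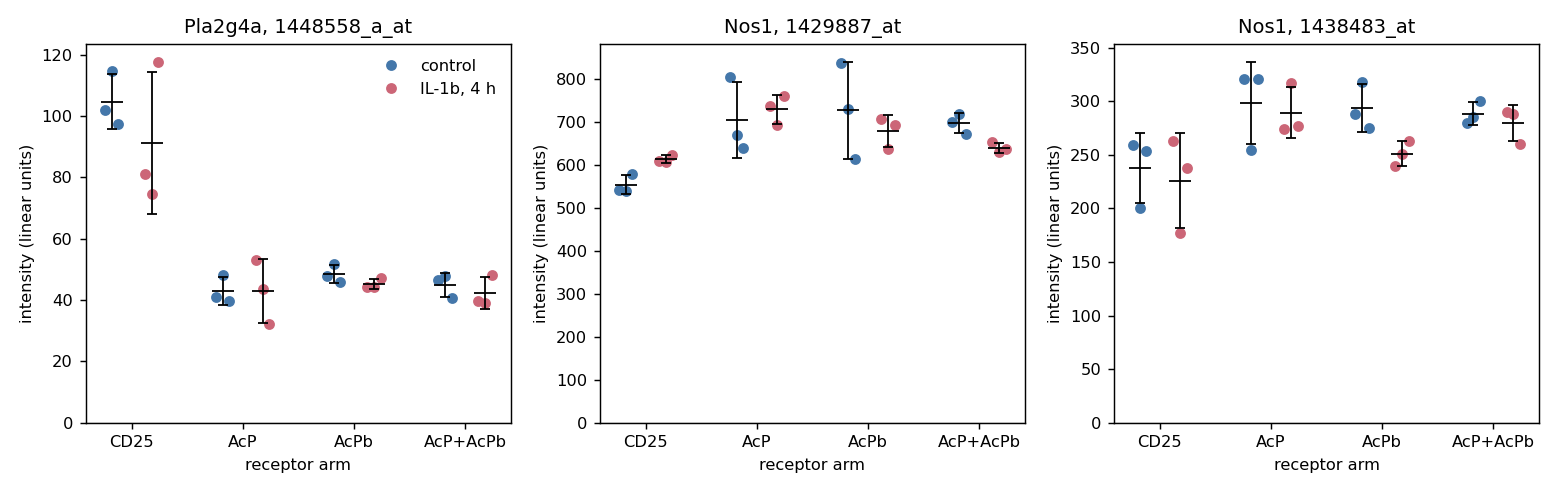
Intensity (linear units, y axis from 0) of Pla2g4a and of 2 Nos1 probe sets by receptor arm (x axis), for control arrays (blue) and arrays with IL-1b for 4 h (red), with means and SDs of 3 arrays. The CD25 arrays of Pla2g4a (74.6 to 117.57) lie above all others (32.33 to 53.09), and the CD25 controls of Nos1 on 1429887_at (539.95 to 580.18) lie below the controls of the other arms (613.37 to 838.77).

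Nos1, the neuronal nitric oxide synthase, was lower in CD25 controls than in the other controls on its probe set 1429887_at, which ranked between percentiles 82.6 and 86.2 of the arrays. The CD25 controls read 542.57, 539.95 and 580.18. The AcP controls read 804.7, 670.35 and 639.55, the AcPb controls 838.77, 730.15 and 613.37, and the AcP+AcPb controls 699.76, 719.69 and 673.21. No control array of these arms fell into the CD25 range. The differences from CD25 were 0.33 ± 0.09 (adjusted p = 0.0259), 0.37 ± 0.09 (adjusted p = 0.0239) and 0.32 ± 0.09 (adjusted p = 0.0244). They were lost in 6 of 19, 5 of 19 and 5 of 18 alternatives. Among these, the adjusted p lay between 0.0725 and 0.0872 without CD25 control 1 or 2 and was 0.119, 0.144 and 0.0572 without control 1 of the AcP, AcPb and AcP+AcPb arms. Without control 2 of the AcPb and AcP+AcPb arms it was 0.0748 and 0.0933. With array medians centred the AcP and AcP+AcPb calls were also lost (adjusted p = 0.069 and 0.0731).

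With IL-1b the same Nos1 probe set did not pass the test. The CD25 arrays with IL-1b read 608.8, 607.6 and 624.41 and the AcP arrays 737.3, 693.77 and 760.29, a difference of 0.24 ± 0.09 (adjusted p = 0.115). In AcPb and AcP+AcPb neurons with IL-1b it was 0.14 ± 0.09 (adjusted p = 0.54) and 0.06 ± 0.09 (adjusted p = 0.736). The second probe set, 1438483_at, had control means of 238 ± 32.7 in CD25, 298 ± 38.2 in AcP, 294 ± 22.3 in AcPb and 288 ± 10.7 in AcP+AcPb neurons, and its differences of 0.31, 0.30 and 0.27 (each ± 0.12) did not pass (adjusted p = 0.119, 0.207 and 0.143).

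The third Nos1 probe set, 1422949_at, was called in AcP+AcPb controls only among the unstimulated comparisons. There it read 123.28, 106.13 and 102.33, against 72.93, 68.53 and 67.1 in CD25 controls, a difference of 0.56 ± 0.17 (adjusted p = 0.0305). This call was lost in 5 of 16 alternatives, each the removal of 1 array (CD25 control 1, 2 or 3, or AcP+AcPb control 1 or 2, adjusted p from 0.059 to 0.0973). In AcP and AcPb controls it differed from CD25 by 0.13 and 0.04, each ± 0.17. The fourth, 1458626_at, lay between -3.84 and 13.63 on every array. The probe sets 1429887_at and 1438483_at correlated at a Pearson r of 0.538 over the arrays, and every other pair of Nos1 probe sets between -0.21 and 0.16.

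IL-1b left no called change in Nos1. On 1429887_at the responses were 0.14 ± 0.09 in CD25, 0.06 ± 0.09 in AcP, -0.09 ± 0.09 in AcPb and -0.12 ± 0.09 in AcP+AcPb neurons. The interval of the AcP response ran from -0.14 to 0.25. The CD25 arrays with IL-1b, from 607.6 to 624.41, lay above the CD25 controls, from 539.95 to 580.18, yet the adjusted p was 0.884.

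Nos2, the synthase induced by cytokines, was below 0 on all 24 arrays, from -91.8 to -12.16. Its means with IL-1b were -35.7 ± 3.31 in CD25, -39.9 ± 9.66 in AcP, -35.7 ± 8.85 in AcPb and -41.9 ± 8.06 in AcP+AcPb neurons, and the control means ran from -55.2 to -27.5. No signal of Nos2 was detectable in any group, and no fold change can be formed. Nos3, the endothelial enzyme, varied little, from 79.04 to 104.45 over the 24 arrays. Its response to IL-1b was 0.10 ± 0.07 in CD25, 0.01 ± 0.07 in AcP, 0.06 ± 0.07 in AcPb and -0.09 ± 0.07 in AcP+AcPb neurons, and none passed the test.

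Ptgds, the brain-type prostaglandin D synthase, had 2 probe sets that did not move together (Pearson r = 0.0912 over 24 arrays). On 1423860_at the AcP+AcPb controls read 41.09, 35.38 and 25.9, below the CD25 controls at 49.99, 45.14 and 54.11, a difference of -0.40 ± 0.12 (adjusted p = 0.0356). The call was lost in 7 of 16 alternatives, among them the fits without CD25 control 1 or 3 (adjusted p = 0.0847 and 0.123) and without AcP+AcPb control 2 or 3 (adjusted p = 0.0773 and 0.152). On 1423859_a_at the same difference was 0.19 ± 0.19 (adjusted p = 0.53), of opposite sign, with means of 164 ± 19.8 and 141 ± 8.25.

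In all, 2 of 9 probe sets were called between AcP and CD25 controls, Pla2g4a lower and Nos1 1429887_at higher, beside 10.3% of 30468 probe sets. Between AcPb and CD25 controls 2 of 9 were called, Pla2g4a lower and Nos1 1429887_at higher, beside 4.59%, and 4 of 9 between AcP+AcPb and CD25 controls, beside 14.3%. With IL-1b, Pla2g4a was the 1 of 9 called in each arm, beside 8.1%, 2.15% and 10.7%. These arms differed from CD25 in many probe sets, the 6 comparisons share the CD25 groups, and nothing is read from these counts as particular to the set.

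**Figure D4:**
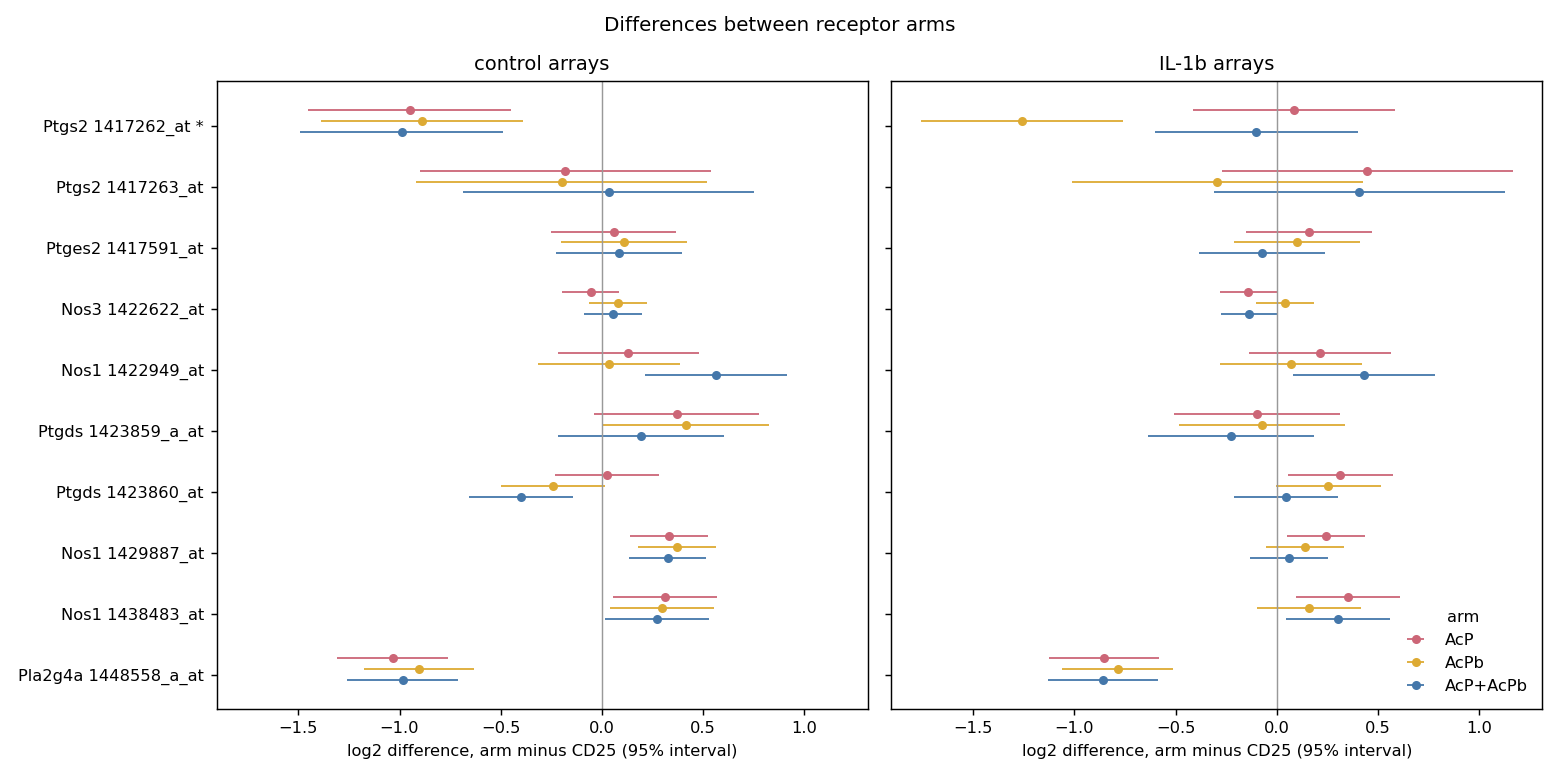
Differences of AcP, AcPb and AcP+AcPb neurons (colours) from CD25 neurons (log2 difference, x axis) on control arrays (left) and on arrays with IL-1b (right), for the 9 tested probe sets and for Ptgs2 1417262_at, which is marked with an asterisk and comes from the fit without the dim filter. Points are limma estimates and lines 95% intervals. Pla2g4a lies between -1.03 and -0.79 in all 6 comparisons.

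Further genes of the pathways were taken from a list of 68 that upstream, downstream or partner roles define, 66 of them with a named probe set and 53 with 96 tested ones. By limma, 0 of 96 were called in any IL-1b response or difference between responses, where 0% to 0.404% of all probe sets were called in the responses. In the CD25, AcP, AcPb and AcP+AcPb responses 4, 6, 4 and 2 of the 96 had an unadjusted p under 0.05, each a smaller share than the 5.62%, 8.24%, 10.1% and 9.78% of all probe sets. The median response was -0.01 in CD25, -0.01 in AcP, 0.01 in AcPb and 0.00 in AcP+AcPb neurons. Against CD25 controls, 7 were called higher and 9 lower in AcP controls, 0 and 3 in AcPb controls, and 6 and 7 in AcP+AcPb controls. These are 16.7%, 3.12% and 13.5% of the 96, beside 10.3%, 4.59% and 14.3% of all probe sets.

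Among the enzymes that break down prostaglandins, Ptgr1, prostaglandin reductase, was 949 ± 315 in CD25 controls and 179 ± 20.2 in AcP controls, a difference of -2.26 ± 0.28 (adjusted p = 3.39e-05). In AcPb and AcP+AcPb controls it differed by -2.11 and -1.86, each ± 0.28, and all 3 calls held in every alternative run. Abcc4, which exports prostaglandins, differed by -0.89, -0.66 and -0.57 in the same order, the last of these lost in 4 of 18 alternatives and the one before in 5 of 19. Ptgdr, a receptor of prostaglandin D, differed by -0.82 ± 0.21 in AcP+AcPb controls. Mgll, the monoacylglycerol lipase that yields arachidonic acid in brain, was higher by 0.45 ± 0.09 in AcP and 0.50 ± 0.09 in AcP+AcPb controls on the probe set with the largest difference, 1453836_a_at. Faah, which hydrolyses anandamide, was higher there by 0.32 and 0.41, and the AcP call was lost in 9 of 19 alternatives. Prxl2b, from the list's prostanoid enzymes, was higher by 0.33 ± 0.10 in AcP controls (limma, adjusted p = 0.0338), a call lost in 7 of 19 alternatives.

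On the nitric oxide side, Cav1, caveolin, which binds and inhibits the endothelial synthase, was 1051 ± 183 in CD25 controls and 514 ± 53.7 in AcP, 583 ± 70.5 in AcPb and 526 ± 13.1 in AcP+AcPb controls (adjusted p = 0.000458, 0.00462 and 0.000655). Slc7a2, a carrier of arginine, was called lower in AcP controls on all 4 of its probe sets, by -0.41, -0.67, -0.74 and -1.01. The largest of these came from the dimmest, 1450703_at, at 24.2 ± 16.9 in AcP and 60.2 ± 6.23 in CD25 controls, and ranged from -1.39 to -0.51 over the alternatives. In AcPb controls no Slc7a2 probe set was called, and in AcP+AcPb controls only 1436555_at was, at -0.49 ± 0.15. Nos1ap, an adaptor of the neuronal synthase, was 187 ± 8.36 in CD25 and 288 ± 12.4 in AcP+AcPb controls on 1437485_at. This difference of 0.58 ± 0.11 (limma, adjusted p = 0.00196) was the only call of Nos1ap in any comparison. Gucy1a1, a subunit of the guanylate cyclase that nitric oxide activates, was higher by 0.30 ± 0.09 in AcP controls (adjusted p = 0.0497), a call lost in 9 of 18 alternatives, and by 0.44 ± 0.14 in AcP+AcPb controls on another probe set, lost in 10 of 17. Gch1, the first enzyme of tetrahydrobiopterin synthesis, was called higher in AcP than in CD25 neurons with IL-1b on 1429692_s_at. It was 67.9 ± 15.4 against 35.7 ± 9.03 (0.70 ± 0.20, limma, adjusted p = 0.039), a call lost in 6 of 18 alternatives. In AcP+AcPb neurons with IL-1b it was called higher on this probe set, by 0.64 ± 0.20, lost in 10 of 17 alternatives. There 1420499_at was also called, by 0.55 ± 0.14, but not in AcP neurons with IL-1b. No IL-1b response of Gch1 was called, and in AcP neurons the highest response of the 24 tested probe sets of its list was 0.26.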

How the data were processed

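RNA of embryonic cortical neurons was profiled on 24 one-colour Affymetrix Mouse 430 2.0 arrays, 3 in each of 8 groups taken from the labels. The authors deposited linear probe set intensity values. Their summarisation and scaling are unknown here. Per the labels' protocols, column-purified RNA received a biotin label by Eberwine amplification. Of 45077 probe sets, 40 controls were left out. Symbols came from the supplied platform annotation, which gave 34945 probe sets 1 symbol, 932 several and 9160 none.

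The deposited intensity values were turned into log2(value + 16) after setting values below 0 to 0. limma (version 3.58.1, R 4.3.3) was fitted to all 24 arrays with 8 group means and 16 residual degrees of freedom, over the 30468 probe sets with at least 3 arrays above the 40th percentile of their array. P-values are two-sided and adjusted by Benjamini-Hochberg within each comparison, and a probe set was called at an adjusted p under 0.05. Values after ± are SEs of log2 differences or SDs of 3 arrays. Levels of different probe sets were described but not tested against each other. Marker sums took each gene by its probe set of highest mean, with values below 0 set to 0.

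The genes and lists were chosen with earlier results of these data known. Comparisons between arms with IL-1b, and the further settings of the fit without the dim filter, were added after seeing the data. Pathway genes named are up to 4 in each direction by size of change among those called, with Gch1 added from the IL-1b comparisons. Alternatives were the added value (4 or 64), a generalised log, quantile normalization, centred array medians, a dim filter at the 60th percentile or none at all, 1 probe set a gene, array weights, an intensity trend, the array code or the replicate number as a block, only the groups compared, and each array left out. Promoter windows are RefSeq's, on GRCm38.p6. The script was tested on simulated data with known changes.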

Additional observations from a re-analysis of the deposited data

How the results depend on the processing

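Over 14 counts of called probe sets and 288 alternatives, 256 counts stayed within 1.5 times the value reported and 32 moved. Without the dim filter the AcP response had 1 called probe set and the AcP+AcPb response 1, both Ptgs2 1417262_at, and the AcPb comparison with IL-1b had 2. For AcP controls against CD25 the count was 1 with centred array medians, array weights, only the groups compared or the 60th percentile filter, and 1 to 2 with 1 array left out (CD25 control 1 or 2 or AcP control 1 gave 1). For AcPb controls it was 1 with only the groups compared or the 60th percentile filter, and 1 to 2 with 1 array left out (CD25 control 1 or 2 or AcPb control 1 or 2 gave 1). For AcP+AcPb controls it was 1 with the 60th percentile filter, which removes Pla2g4a, 2 with 1 probe set a gene, and 1 to 4 with 1 array left out (CD25 control 1 or AcP+AcPb control 2 gave 1). With IL-1b the counts were 0 in all 3 arms with only the groups compared or the 60th percentile filter, and 2 for AcP with array weights. With 1 array left out they ran from 1 to 3 for AcP and from 1 to 2 for AcP+AcPb, each highest without CD25 IL-1b array 1. Of 17 called pairs of a probe set and a comparison, 0 changed sign. The cause of these moves was otherwise not tested.

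Whether the replicate numbers pair the samples was not settled. The deviations of same-numbered arrays correlated between -0.121 and 0.194, with 2 of 12 pairs over 0.1. In the CD25 arm they correlated at 0.194, 0.0752 and 0.0645. Array medians there were 57.91, 60.14 and 58.53 in controls 1 to 3, and 57.88, 60.12 and 58.52 in IL-1b arrays 1 to 3. A block shared by all arms cannot test a pairing within 1 arm. The replicate block changed none of the 14 counts. In the fit without the dim filter, the replicate block gave Ptgs2 1417262_at an adjusted p of 0.0531 in the AcP+AcPb response and 0.055 in AcPb controls. Over all probe sets, the AcP response had 123 calls, 48 with only the groups compared and 322 without AcP control 3, and the AcP+AcPb response 78 calls, 8 with only the groups compared and 143 without AcP+AcPb control 3. The AcPb response had 3 calls and 185 with array weights. Signal limits Ptges, Nos2 and probe set 1417262_at of Ptgs2, whose values lay near or below 0.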
